A study of Homo sapiens with 6 samples.

Results

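Chromosome 21 held 1023 of the 118556 open chromatin regions (0.863%) counted in a FAST-ATAC comparison of 2 sorted populations of human embryonic stem cells. The regions were chosen by chromosome name alone: every region on chr21 of the deposited table was taken, without a filter on its reads. The table itself had been selected on measured signal, since a region entered it only where the reads pooled over the replicates of a population formed a peak. Chromosome 20, with 2592 regions, and chromosome 22, with 1871, served for comparison.

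FAST-ATAC uses the Tn5 transposase to cut accessible DNA and insert sequencing adapters, so that the reads in a region rise with its openness. The cells were WA09, an established embryonic stem cell line, and all results come from this line. The high population was sorted as GCTM-2highCD9highEPCAMhigh, and the mid population, whose sample titles say low, was sorted as GCTM-2midCD9mid, with no EPCAM gate in its label. Each population had 3 replicates, numbered 1 to 3, and no other treatment separated them. Stem cell marker loci were not checked here, because gene positions in hg19, the build of the regions, were not used. The reads come from many cells, so fewer cells with an open region and less opening per cell cannot be told apart.

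Chromosome 21 is the smallest human autosome and is acrocentric. Its short arm consists largely of repeated DNA that resembles the short arms of the other acrocentric chromosomes, and reads from such DNA are hard to place. The long arm is known for a gene-poor stretch near its middle and a gene-dense end, and carries developmental regulators such as RUNX1, OLIG2 and DYRK1A. An extra copy causes Down syndrome. As whole chromosomes in GRCh38, chromosome 21 has a GC content of 40.9% and 4.71 protein-coding genes per Mb, against 43.8% and 8.47 for chromosome 20 and 47.0% and 8.80 for chromosome 22. The last chromosome 21 region ended at position 48119664, past the 46709983 bases of the chromosome in GRCh38, so genes could not be assigned to regions by position.

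Total counts over all regions lay between 15486251 and 29025274 per sample. On chromosome 21 the samples held between 106506 and 234709 counts, with a median of 58 to 108 per region. No chromosome 21 region was at 0 in any sample, the lowest count being 2. A filter for more than 1 CPM (counts scaled to a common TMM-adjusted total) in at least 3 samples kept all 1023 regions.

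Open regions were sparse on chromosome 21. Between its first and last region it held 26.6 regions per Mb, against 41.3 on chromosome 20 and 55.5 on chromosome 22, and the regions covered 3.0% of that span, against 4.89% and 7.46%. The regions had a median width of 855 bp, with quartiles of 642 and 1326.5 bp, close to the 879 bp of all regions and below the 1060 bp of chromosome 22. The widest was chr21:47390104-47397773, with 7670 bp. The longest interval without a region ran for 4.22 Mb, from 11181882 to 15399366, and separated 18 regions before 12 Mb, taken as the short arm, from 1005 on the long arm. The next longest, 0.927 Mb, lay on the long arm from 25341752 to 26268397.

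The first question was how much of each sample's signal fell on the chromosome. The share of counts in chromosome 21 regions was 0.706%, 0.688% and 0.759% in high replicates 1, 2 and 3, and 0.809%, 0.853% and 0.798% in mid replicates 1, 2 and 3. Every high sample lay below every mid sample. The widest 95% Wilson interval of these shares, which covers counting error only, spanned 0.00823 percentage points. The high mean was 0.717% ± 0.0367 (SD, n = 3) and the mid mean 0.820% ± 0.0292 (SD, n = 3). The difference was -0.102 percentage points (two-sided exact permutation test, p = 0.1, the smallest that 3 against 3 allows). Within pairs of the same replicate number, the differences were -0.102, -0.165 and -0.0395 percentage points. In regions up to 2000 bp wide alone, the difference fell to -0.0372 percentage points and the groups overlapped (two-sided exact permutation test, p = 0.3).

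**Figure D1:**
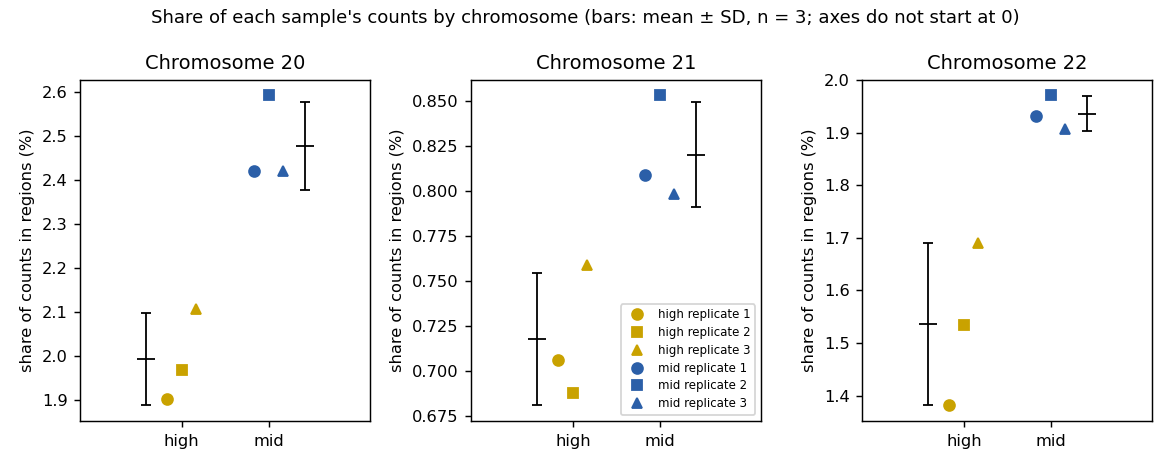
Share of each sample's region counts (percent, y axis) on chromosomes 20, 21 and 22, by population (x axis). Points are samples and bars the mean ± SD, n = 3. On chromosome 21 the high samples sit between 0.688% and 0.759% and the mid samples between 0.798% and 0.853%.

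Chromosomes 20 and 22 also had lower shares in each high sample than in any mid sample, with log2 differences of -0.31 and -0.34 in their means against -0.19 for chromosome 21. The ratio of chromosome 21 to chromosome 20 counts was 0.371, 0.349 and 0.360 in high replicates 1, 2 and 3, and 0.334, 0.329 and 0.330 in the mid replicates. The high samples all lay above the mid samples, by 1.09-fold (log2 difference 0.12, two-sided exact permutation test, p = 0.1, again the smallest possible). The ratio of chromosome 21 to chromosome 22 counts was 0.511, 0.448 and 0.449 in the high and 0.419, 0.433 and 0.418 in the mid replicates, a 1.11-fold difference with no overlap (log2 difference 0.15, p = 0.1 from the same permutation test). These ratios do not depend on library scaling. The contrast with chromosome 20 rested on few and wide regions: it was 0.06 on the log2 scale without the 10 regions with the most reads of each chromosome, and 0.02 over regions up to 2000 bp, where the groups overlapped (exact permutation test, p = 0.4). The contrast with chromosome 22 was 0.16 and 0.13 under these settings, with no overlap in either. It was 0.075 without the replicate 1 pair, whose high sample had the highest ratio.

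Single regions were compared next, in a fit over all 118556 regions. The test was edgeR's quasi-likelihood test with the replicate number as a block, and a region is called where its p-value, adjusted by Benjamini-Hochberg, was under 0.01. On chromosome 21, 61 regions (5.96%) were more accessible in the mid population, against 3.77% of all regions, and 3 (0.293%) were more accessible in the high population, against 2.32% of all regions. On chromosome 20 the mid calls were 226 (8.72%) and on chromosome 22 they were 262 of 1871, with 17 and 2 high calls. Among the 23 chromosomes other than Y, chromosome 21 ranked sixth from the top by its share of mid calls and 21st by its share of high calls. With no replicate block, 10 of its regions (0.978%) were called in the mid population, against 1.11% of all regions, so the mid share was not above that of all regions. In that fit 0 were called in the high population, against 0.236% of all regions. At an unadjusted p under 0.05, 15 regions were higher and 215 lower in the high population. DESeq2 called 46 mid and 0 high regions among the 500 chromosome 21 regions to which it gave an adjusted p-value (9.20% mid), against 6.42% mid and 1.68% high of all regions that had one. Without the replicate 2 pair, 2 mid (0.196%) and 0 high regions were called, against 0.369% and 0.313% of all regions, so that the share of mid calls on chromosome 21 was no longer above that of all regions. The 2 were the regions named B and K further on. In that fit 25 regions were higher and 121 lower in the high population at an unadjusted p under 0.05.

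Over all 1023 regions, called or not, values below 0 prevailed. The log2 fold change (high over mid) had a median of -0.22 over the 1023 regions, with quartiles of -0.43 and 0.03, against a median of 0.03 over all regions, -0.25 on chromosome 20 and -0.35 on chromosome 22. It was below 0 in 738 regions (72.1%), against 46.5% of all regions. The medians of the 3 same-numbered pairs were -0.24, -0.34 and -0.07, so the replicate 3 pair differed least. In 248 regions (24.2%) every high sample lay below every mid sample, against 13.0% of all regions, and in 22 (2.15%) every high sample lay above, against 12.9% of all regions. Total counts in place of TMM normalization moved the median of all regions to 0.12 and that of chromosome 21 to -0.13, which left the distance between them at -0.25.

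When each chromosome was given its own offsets, so that regions were compared with the rest of chromosome 21, 14 regions were called as more accessible in the high cells, against 1.78% of all regions, and 12 (1.17%) in the mid cells, against 3.01% of all regions. All 3 high and 12 of the 61 mid calls were among them. This setting, chosen after the data were examined, centres the chromosome by its construction. Such centring largely sets the balance of the calls and bears on where they lie. With it the median log2 fold change was 0.36 from 20 to 32 Mb and -0.08 from 34 to 48 Mb. Of the 14 high calls, 10 lay between 20 and 32 Mb, 1 between 32 and 34 Mb and 3 between 34 and 48 Mb. Of the 12 mid calls, 11 lay between 34 and 48 Mb, which held 66.8% of the regions. These stretches were bounded after the bins were seen, so the places of the calls are description only.

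Along the chromosome the counts were summed in 2 Mb bins of the region midpoint and tested in the same way, over 1453 bins of all chromosomes. Chromosome 21 filled 20 bins, with 8 to 131 regions each. Of these, 8 (40.0%) were lower in the high population at an adjusted p-value under 0.01, against 13.7% of all bins, and 0 were higher, against 17.2% of all bins. No bin was higher at an unadjusted p under 0.05 either. Chromosome 20 had 20 of 32 bins lower, and chromosome 22 had 17 of 18. Every high sample lay below every mid sample in 11 bins (29.2% of all bins did so) and above in 0 (29.4% of all bins). The 8 called bins were that from 14 to 16 Mb and the 7 consecutive bins from 34 to 48 Mb. With no replicate block 8 bins were called, and without the replicate 2 pair 0, with 2 at an unadjusted p under 0.05.

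**Figure D2:**
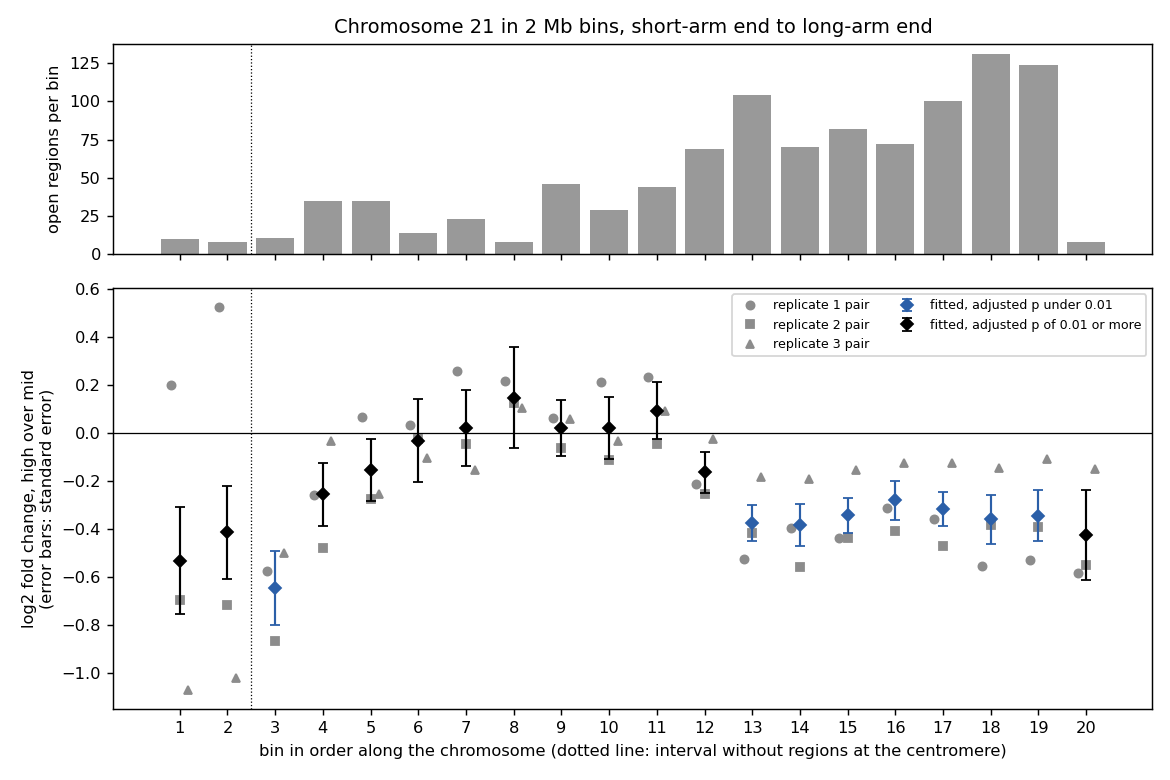
Number of open regions (upper y axis) and log2 ratio of high to mid (lower y axis) in the 20 bins of 2 Mb that hold regions, in order along chromosome 21 (x axis). Grey symbols are same-numbered pairs, diamonds the fitted value ± standard error, and blue marks the 8 bins with an adjusted p under 0.01, the third and the thirteenth to nineteenth.

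The bin nearest the centromere on the long arm had the lowest fold change of all 20 bins. From 14 to 16 Mb, 11 regions held 89.8, 78.4 and 88.5 normalised CPM in high replicates 1, 2 and 3, and 134, 143 and 125 in the mid replicates. The groups did not overlap, and edgeR's fit gave a log2 fold change of -0.65 with standard error 0.15 (adjusted p = 0.000276). The level fell by 0.58, 0.87 and 0.50 on the log2 scale in the 3 pairs. Of its 11 regions, 10 were lower in the high population and 3 were called. The next bins, from 16 to 18 and from 18 to 20 Mb, held 35 regions each and had log2 fold changes of -0.25 and -0.15, neither past the threshold.

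In the middle of the long arm no bin was called. From 20 to 32 Mb, the samples of the populations overlapped in each of the 6 bins. This stretch, bounded after the bins were seen and therefore given without a test, held 164 regions (16.0% of the chromosome) at 13.7 regions per Mb. Its summed level was 1077, 846 and 901 normalised CPM in the high and 959, 880 and 890 in the mid replicates. High replicate 1 was the highest sample and high replicate 2 the lowest. The 6 bins had fitted log2 fold changes between -0.03 and 0.15, and their smallest adjusted p-value was 0.512. The median over regions was 0.14, and only 58 of the 164 (35.4%) were below 0. All 3 high calls of the chromosome lay here, but 3 of 164 is a share below the 2.32% of all regions. Of the mid calls 0 lay here, against 3.77% of all regions. The adjoining bins were not called either, with log2 fold changes of -0.15 from 18 to 20 Mb and -0.16 from 32 to 34 Mb.

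The distal part of the long arm carried most of the chromosome's signal and most of its calls. From 34 to 48 Mb, 683 regions (66.8%) lay at 48.8 per Mb and held 71.9% of the mean normalised chromosome 21 level of the high and 74.9% of that of the mid population. The summed level was 4804, 4744 and 5442 normalised CPM in the high and 6654, 6363 and 6010 in the mid replicates. High replicate 3 was the highest of the high samples and mid replicate 3 the lowest of the mid samples, with a clear interval between them. In these 683 regions the median log2 fold change was -0.29 and 555 (81.3%) were below 0. Called were 51 mid (7.47%) and 0 high regions, against 3.77% and 2.32% of all regions. This stretch too was bounded after the bins were seen, and joins the 7 consecutive called bins. Its shares were therefore largely built in and are given without a test. The fitted log2 fold changes of the 7 bins lay between -0.38 and -0.28. The smallest p-value belonged to the bin from 34 to 36 Mb, whose 104 regions summed to 790 ± 62.0 normalised CPM (SD, n = 3) in the high against 1025 ± 83.4 (SD, n = 3) in the mid population. Its log2 fold change was -0.37, with a standard error of 0.08 and an edgeR adjusted p = 2.03e-05.

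The bins at 44 to 46 and 46 to 48 Mb were the densest, with 131 and 124 regions of median widths 1220 and 1225.5 bp. In the former the high replicates held 972, 1052 and 1177 normalised CPM and the mid replicates 1426, 1373 and 1300. In the latter the high replicates held 985, 1087 and 1206 and the mid replicates 1422, 1427 and 1301. Both fell in every pair, by 0.55, 0.38 and 0.14 on the log2 scale in the former. The last bin, from 48 Mb, held 8 regions and a log2 fold change of -0.43 (standard error 0.19), which missed the threshold at an adjusted p = 0.0464, although the groups did not overlap.

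Wider regions had lower fold changes, on chromosome 21 as over all regions. The 617 regions up to 1000 bp had a median log2 fold change of -0.15, the 293 over 1000 and up to 2000 bp -0.24 and the 113 over 2000 bp -0.39. For all regions of the table the same classes had medians of 0.10, 0.00 and -0.22. The chromosome 21 median was therefore lower than that of all regions within each width class. Of the 113 widest regions, 34 (30.1%) were called in the mid population, against 20.7% of all regions over 2000 bp, 39.5% on chromosome 20 and 48.1% on chromosome 22. Among the narrow regions, 13 (2.11%) were mid calls, against 0.569% of all narrow regions. The stretch from 20 to 32 Mb had few wide regions, 8 of 164 (4.88%), against 93 of 683 (13.6%) from 34 to 48 Mb. The part of region width in the values of these stretches was not tested.

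**Figure D3:**
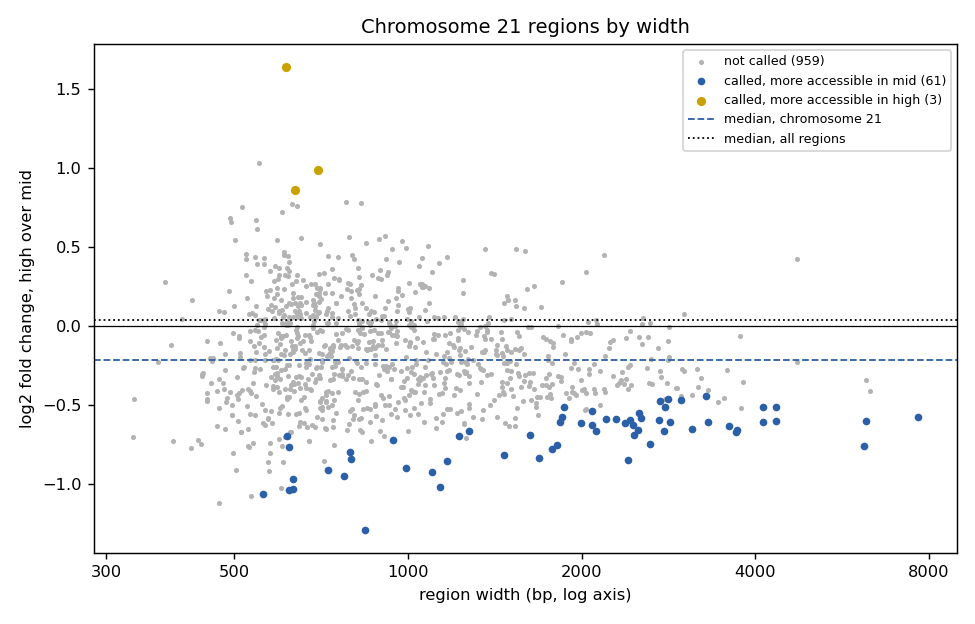
Log2 ratio of high to mid (y axis) against region width (x axis, bp, log axis) for the 1023 chromosome 21 regions. Blue points are the 61 regions called in the mid population, gold points the 3 called in the high population, and grey points the others; the dashed line is the chromosome 21 median of -0.22 and the dotted line the median of all regions, 0.03.

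The 61 mid calls had log2 fold changes from -1.29 to -0.45, with a median of -0.66, and only 5 changed more than 2-fold. Their median width was 2206 bp, and 34 were over 2000 bp. All 61 fell in each same-numbered pair, as did 4459 of the 4472 mid calls of all regions, and in 55 the samples did not overlap. The calls were made from these same values, so such agreement was largely built in. Mid replicate 1 was the highest sample in 40 of the 61 and high replicate 2 the lowest in 29. Most of the 61, 51 regions, lay from 34 to 48 Mb, which held 66.8% of the chromosome's regions. That stretch was bounded after the bins were seen. Of the 64 called regions, 9 had a called region as their direct neighbour. At the threshold, chr21:46292299-46295274 was the last region inside (log2 fold change -0.47, adjusted p = 0.00927), and chr21:38638819-38640858 lay just outside (-0.43, adjusted p = 0.0105).

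The smallest p-value on the chromosome belonged to region B, chr21:15457030-15457650, in the bin nearest the centromere. It held 18.1, 20.1 and 16.4 normalised CPM in high replicates 1, 2 and 3, and 36.4, 41.8 and 33.9 in the mid replicates. All 3 mid samples stood well above the high samples. Means were 18.2 ± 1.84 (SD, n = 3) and 37.3 ± 4.06 (SD, n = 3), and edgeR gave a log2 fold change of -1.04 with standard error 0.13 (adjusted p = 1.83e-07). Its neighbour chr21:15450734-15451356, 5673 bp before it, was also called (-0.77), though its samples overlapped and its adjusted p was 0.116 with no replicate block. Region B itself was called under every alternative tried, with the largest adjusted p, 0.00163 from edgeR, when the replicate 2 pair was left out.

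The largest fall was in region K, chr21:46974373-46975216. Its level was 2.45, 2.09 and 2.15 normalised CPM in the high and 6.5, 5.15 and 4.87 in the mid replicates. The high samples lay close together, and each mid sample was well above them. The log2 fold change was -1.29 (standard error 0.21, adjusted p = 2.28e-05).

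Of the other mid calls with small p-values, regions F, H and J were open in all samples. Region F, chr21:34863186-34864650, had 12.7, 11.6 and 12.2 normalised CPM in the high and 24.5, 21.3 and 19.0 in the mid replicates (log2 fold change -0.82, adjusted p = 8.68e-05). Region H, chr21:38066513-38072685, with a width of 6173 bp, had 30.2, 28.7 and 34.4 in the high and 61.0, 55.7 and 43.3 in the mid replicates (-0.76, adjusted p = 4.03e-05). With loess offsets on region width, region H had a log2 fold change of -0.34 and was not called (adjusted p = 0.0415). Both populations kept to separate ranges in each. Only 162 bp before region H lay a further mid call, chr21:38063940-38066350, with a log2 fold change of -0.85. Region J, chr21:44393325-44396103, had 49.8, 48.4 and 42.0 normalised CPM in the high and 86.6, 69.6 and 67.2 in the mid replicates (-0.67, adjusted p = 7.27e-05).

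Regions G and I were called on few reads. Region G, chr21:36772674-36773306, held 27, 18 and 48 counts in the high and 93, 78 and 64 in the mid replicates, for which edgeR gave a log2 fold change of -1.03 with standard error 0.27 (adjusted p = 0.00612). Region I, chr21:43068509-43069069, held 30, 26 and 46 counts in the high and 76, 122 and 75 in the mid replicates (-1.06, standard error 0.25). The samples of the populations did not overlap in either once scaled.

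**Figure D4:**
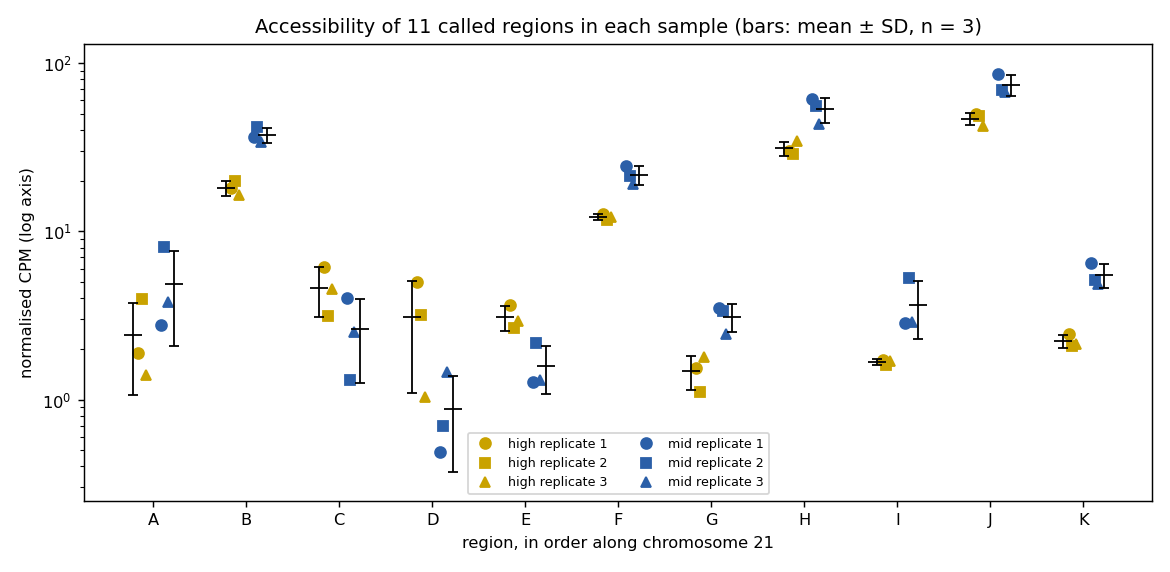
Normalised CPM (y axis, log axis) in each sample of 11 called regions, A to K, in order along chromosome 21 (x axis). Gold is the high and blue the mid population, symbols mark the replicate, and bars are the mean ± SD, n = 3. Regions C, D and E are the 3 called in the high population, and among these 3 only in E do the populations not overlap.

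The 3 high calls were narrow regions with 235 to 484 reads over the 6 samples. Region C, chr21:22984605-22985241, had 6.16, 3.14 and 4.52 normalised CPM in the high and 4.02, 1.30 and 2.53 in the mid replicates. The populations overlapped, but each high sample exceeded its same-numbered mid sample (edgeR log2 fold change 0.86 with standard error 0.22, adjusted p = 0.00496). Region D, chr21:23473390-23474003, had 5.02, 3.20 and 1.04 in the high and 0.488, 0.692 and 1.46 in the mid replicates. Here the replicate 3 pair ran the other way, and the fitted log2 fold change of 1.64 had a standard error of 0.38 (adjusted p = 0.00184). Region D depended on which pairs were used. Without the replicate 1 pair it had 0.77 and no call (edgeR adjusted p = 0.178), and without the replicate 3 pair it had 2.78. Region E, chr21:31170984-31171682, had 3.65, 2.65 and 2.93 in the high and 1.28, 2.16 and 1.30 in the mid replicates, with no overlap (0.99, standard error 0.27, adjusted p = 0.00899). Without the replicate block the adjusted p-values of C, D and E were 0.139, 0.0275 and 0.0530 in the edgeR test, all above the threshold.

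The regions with the most reads also lay lower in the high population, though not all past the threshold. The highest total, 11665 reads, was in chr21:35013222-35016531, with 70.7, 63.5 and 63.9 normalised CPM in the high and 114, 95.5 and 93.0 in the mid replicates (log2 fold change -0.61, adjusted p = 0.000152). It was not called with loess offsets on average level (-0.29, adjusted p = 0.0486) or on region width (-0.36). The second, chr21:32929519-32932747, had 60.3, 53.3 and 58.3 in the high and 84.4, 69.8 and 63.1 in the mid replicates, and was not called (-0.33, adjusted p = 0.0546). Among the 5 regions with the most reads the groups did not overlap in any, and 2 were called. The widest region, given above, had 37.5, 37.5 and 43.9 in the high and 73.1, 54.4 and 51.7 in the mid replicates (-0.57, adjusted p = 0.00133). With loess offsets on region width it had -0.094 and was not called (adjusted p = 0.627), nor was it without the replicate 1 pair (-0.40) or with loess offsets on average level (-0.33).

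The other bins with calls were each led, by p-value, by a mid call whose samples did not overlap. From 16 to 20 Mb these were chr21:17101617-17103463 (log2 fold change -0.58) and chr21:18884158-18887440 (-0.45), the mid call with the smallest change, which was not called with loess offsets on average level (-0.19) or region width (-0.20). From 32 to 34 Mb it was chr21:33932657-33935127, with tight replicates of 11.3, 10.3 and 10.8 normalised CPM in the high and 18.6, 17.1 and 16.7 in the mid replicates (-0.69). From 36 to 44 Mb they were chr21:37527607-37530059 (-0.63), chr21:40719867-40722243 (-0.62) and chr21:43185303-43187926 (-0.75), and in the last bin chr21:48054536-48056398 (-0.51). In chr21:37527607-37530059 the call was lost with loess offsets on average level (-0.38), and high replicate 1 stood apart, at 54.3 against 35.4 and 34.9 in the other high replicates. Offsets on average level also ended the calls of chr21:17101617-17103463 (-0.44), chr21:40719867-40722243 (-0.38) and chr21:48054536-48056398 (-0.37). Offsets on region width ended those of chr21:33932657-33935127 (-0.52) and chr21:48054536-48056398 (-0.42). Only chr21:43185303-43187926 kept its call under both.

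The 18 short-arm regions, from 9684084 to 11181882, differed between samples in another way. Their summed level was 66.9, 93.2 and 37.8 normalised CPM in high replicates 1, 2 and 3, and 50.1, 152 and 77.6 in the mid replicates. Replicate 2 was the highest sample of each population, and mid replicate 2 was the highest of all 6 samples in 16 of the 18 regions, against 253 of the 1005 long-arm regions (25.2%). The high mean was 66.0 ± 27.7 (SD, n = 3) and the mid mean 93.4 ± 52.9 (SD, n = 3), a difference smaller than the spread between replicates (two-sided exact permutation test, p = 0.6). That test does not use the pairs. In the blocked fit all 18 regions were below 0, with a median log2 fold change of -0.49, against -0.21 on the long arm. The 2 bins had -0.53 and -0.41 (edgeR adjusted p = 0.0374 and 0.0599), neither called. In both, the replicate 1 pair ran the other way (0.20 and 0.52). The part of read placement in repeated sequence was not tested. Region A, chr21:9856111-9857245, was the only call among the 18, with 1.88, 3.94 and 1.41 normalised CPM in the high and 2.78, 8.05 and 3.79 in the mid replicates (log2 fold change -1.02, adjusted p = 0.00114 with the block). Its groups overlapped, and the adjusted p was 0.0957 with no replicate block. Without the 18 regions, 60 mid and 3 high calls remained on the chromosome, and the difference in share of counts was -0.100 percentage points.

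**Figure D5:**
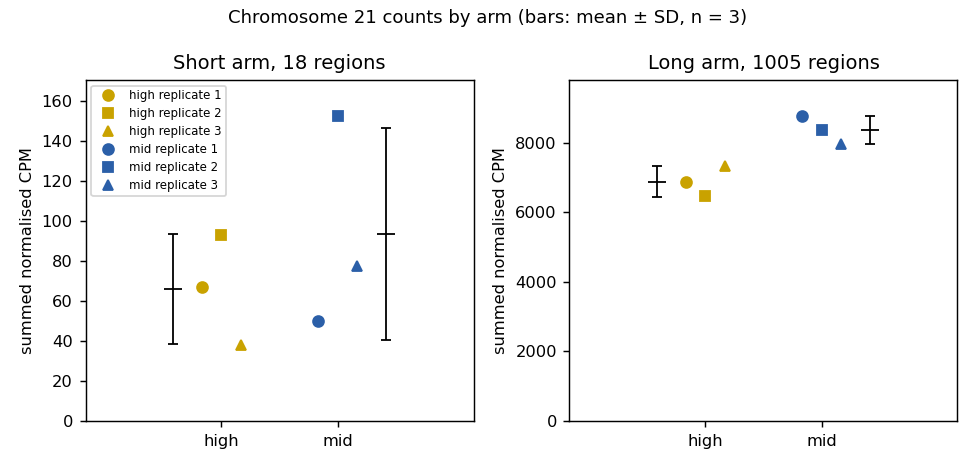
Summed normalised CPM (y axis, from 0) of the 18 short-arm and the 1005 long-arm regions of chromosome 21 in each sample, by population (x axis). Bars are the mean ± SD, n = 3. On the long arm the high samples, up to 7330, lie below the mid samples, from 7978 on, whereas on the short arm the populations overlap and mid replicate 2 is highest at 152.

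The long arm was less accessible in each high sample than in any mid sample. The 1005 regions held 6872, 6459 and 7330 normalised CPM in the high and 8764, 8372 and 7978 in the mid replicates (two-sided exact permutation test, p = 0.1, the smallest possible). At the ends of the chromosome, the first region, chr21:9684084-9684598, and the last, chr21:48119094-48119664, were not called, with log2 fold changes of -0.40 (standard error 0.34) and 0.11 (standard error 0.23).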

How the data were processed

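The authors trimmed the reads, aligned them to hg19 with bwa (BWA 0.7.15 in the processing notes), removed duplicates with Picard, moved each read to its Tn5 cut site, ran MACS on alignments pooled over replicates, merged both populations' regions, removed blacklisted ones and used bedtools for counting. The values, as deposited, are unnormalised read counts for each region in each sample. Merged regions differ in width, and wider ones have more power. Region starts are printed 1 above the deposited ones, read as counting from 0.

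All regions entered, unfiltered, a quasi-likelihood fit with a replicate block and TMM scaling (edgeR 4.0.16 under R 4.3.3). Loess offsets came from limma 3.58.1, DESeq2 1.42.0 was an alternative, and values were plotted with matplotlib 3.10.9. Bins used the same scaling. The fits were tried on simulated counts that had no replicate effect and no chromosome-wide shift, so this trial does not cover either. Standard errors are the absolute fold change over the root of the F statistic.

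Replicate numbers come from the sample titles. On chromosome 21, deviations from group means correlated with r between 0.27 and 0.33 in same-numbered samples and between -0.31 and 0.05 in others. Such deviations cancel within a group, so positive same-numbered values push the others down and the contrast is partly built in. The numbers were taken as pairs because each appears in both populations and the paper's model held batch as a covariate. How batch was coded is not stated there. Over all regions the same-numbered values were 0.19 to 0.30. The methods call the replicates biological.

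Named regions are, per direction, the 5 calls with the smallest p and the 5 with the largest change among those moving alike in all 3 pairs, the smallest p of each bin, the 5 with most reads, the widest, the first and the last. The neighbours of B and H and the regions at the threshold were added after their values were seen. The chromosome, lists and tests were chosen with earlier results of these data known. Sequences and gene names were not used here, since the reference was GRCh38.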

Additional observations from a re-analysis of the deposited data

How the results depend on the processing

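The 64 calls on chromosome 21 (3 high, 61 mid) became 10 with no replicate block (0 high, 10 mid) and 140 at a threshold of 0.05 (11 high, 129 mid). At 0.05 the mid share was 12.6% on chromosome 21 against 7.08% of all regions, with 7145 high calls among all 118556 regions. Total counts only gave 6 high and 40 mid calls (3.91% mid), against 3179 mid calls (2.68%) and 4971 high calls over all regions. DESeq2 gave 0 high calls, but regions C, D and E had no adjusted p-value in it, nor had A, G, I and K. Offsets per chromosome, added after the data were examined, gave 26 calls (14 high, 12 mid) and a median log2 fold change of -0.0014. With a pair or single sample left out, calls ran from 2 to 87, high calls from 0 to 4, mid calls from 2 to 86 and the median from -0.29 to -0.16. The share of mid calls ran from 0.196% to 8.41% on chromosome 21 and from 0.364% to 4.64% of all regions. High calls over all regions ran from 371 to 3815. The low ends came without replicate 2: the pair left out gave 2 calls, high replicate 2 left out 4 and mid replicate 2 left out 2. With the block, a sample without its partner does not bear on the contrast, so these fits are nearly the same and are not separate results. Called bins of 2 Mb ran from 0 (without the replicate 2 pair) to 10 of 20, and 11 of 37 bins of 1 Mb were called. None of these fits called a chromosome 21 region in the direction opposite to its call here. Under loess offsets on width the region chr21:46823422-46829653 turned from -0.34 to 0.081. The first region ran from -0.96 (without high replicate 1) to 0.025 (without the replicate 2 pair), against -0.40. Neither was called. The causes were not tested. RLE size factors, both loess offsets and the CPM filter kept all 3 counts within 1.5 times, but the loess offsets changed which regions were called: 37 of the 61 mid and 1 of the 3 high calls were kept with offsets on average level and 36 and 1 with offsets on width. Of the 20 called regions among the 25 named, 9 and 8 lost their calls, 13 did so with no replicate block and 18 without the replicate 2 pair. The share and ratio differences kept their direction under every alternative, with p = 0.25 in the exact sign-flip test of the 3 paired differences, the smallest it allows. Low counts per sample limit the narrow regions.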
